A study of Mus musculus with 25 samples.

Results

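Interferon-stimulated genes are the genes that cells switch on when interferon, the secreted alarm signal of viral infection, reaches its receptor. The 41 genes described here are all found among the 20870 genes of the deposited table. They were chosen for their rise in libraries labelled CrePos over libraries labelled CreNeg, both from the embryonic sinoatrial node (SAN), the pacemaker region of the heart. That difference is therefore given below as a description with no test, and nothing is drawn from it. The levels of the same genes in SAN and in the working muscle of the right atrium (RA) at 3 stages were not named as a ground for the choice and were tested, although earlier results of the whole table were known when the genes were chosen.

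In background terms, Ifih1 and Ddx58 encode cytosolic sensors of viral RNA, and their signal leads to the production of type I interferon. Type I interferon binds the receptor chains Ifnar1 and Ifnar2 and, through Janus kinases, activates Stat2. With Irf9, Stat2 is part of a complex that binds the interferon-stimulated response element (ISRE), while the gamma-activated site (GAS) is the element known from the response to interferon gamma. The products block viral entry, destroy or mask viral RNA, slow translation, or raise the alarm further, and several of the genes, among them Stat2, Irf7 and the sensors themselves, are parts of the same circuit.

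RNA came from laser-captured tissue of mice on a mixed background. The Isl1 set held 7 libraries of E12.5 SAN, all from Hcn4-GFP;Isl1 fl/fl embryos exposed to tamoxifen at E10.5. Of these, 4 carried no Cre (CreNeg) and 3 carried CAG-Cre/Esr1 (CrePos), a hormone-dependent Cre recombinase under a promoter that is active in nearly all cells, so recombination was not limited to the node. The tissue and stage set held 18 libraries from Hcn4-GFP mice, 3 each of SAN and RA at E14.5, at postnatal day 4 (P4) and at postnatal day 14 (P14). No label says which animal a library came from, so the spread behind each p-value is that of these samples and may be technical.

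The Isl1 set held 45298052 to 88020474 recovered reads a library, and the tissue and stage set held 5101711 to 17997497. Levels are given as CPM, the deposited signal divided by a single constant, and were not compared between sets or between genes. A count of 0 allows up to 3 reads, which is at most 0.0530 CPM in the Isl1 set and 0.646 CPM in the other. In the tissue and stage set the node markers Hcn4 and Tbx3 were higher in SAN, and the atrial peptide Nppa was higher in RA, in every library at every stage. In the Isl1 set, Isl1 itself stood at 67.4, 88.5, 47.8 and 83.2 CPM in CreNeg and at 71.7, 2.85 and 53.9 CPM in CrePos. Reads were counted over the whole gene, so reads outside the floxed part check nothing, but only CrePos replicate 2 lay below CreNeg. The title of that library marks it as an outlier. It also held 1032 CPM of Myl2, a ventricular myosin gene, against at most 6.40 CPM in the other 6 libraries of the set. It is shown throughout and left out of the fit, whose differences are CrePos 1 and 3 minus CreNeg 1 to 4 on the log2(CPM + 1) scale. In that fit the median over all tested genes was −0.42, and −0.03 once libraries were scaled to equal upper quartiles. Values below use the deposited scaling, under which a gene at the median of all genes is lower in CrePos.

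Promoter windows were searched for the letters of the ISRE core and of the GAS. They are printed for the genes with an ISRE match and the 4 largest CrePos minus CreNeg differences. RefSeq windows (GRCm38.p6, 250 bases before to 50 after the start) were found for 31 of the 41 genes. The ISRE core was searched as GAAANNGAA on both strands and the GAS as TTCNNNGAA, whose reverse complement has the same letters. The 250 bases before the start and the first 10 after it are given 5′ to 3′ on the gene's strand, with each ISRE core match, or its reverse complement, in capitals. They lie at chr19:34640639-34640898 on the plus strand for Ifit1, and on the minus strand at chr3:151749901-151750160 for Ifi44, at chr4:156200809-156201068 for Isg15 and at chr12:26456443-26456702 for Rsad2.
Ifit1: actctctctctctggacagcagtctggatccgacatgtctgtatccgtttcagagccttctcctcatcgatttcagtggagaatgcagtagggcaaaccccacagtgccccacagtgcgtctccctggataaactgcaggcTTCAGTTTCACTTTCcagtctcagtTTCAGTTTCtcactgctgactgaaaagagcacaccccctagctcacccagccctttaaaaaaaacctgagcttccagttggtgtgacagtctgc
Ifi44: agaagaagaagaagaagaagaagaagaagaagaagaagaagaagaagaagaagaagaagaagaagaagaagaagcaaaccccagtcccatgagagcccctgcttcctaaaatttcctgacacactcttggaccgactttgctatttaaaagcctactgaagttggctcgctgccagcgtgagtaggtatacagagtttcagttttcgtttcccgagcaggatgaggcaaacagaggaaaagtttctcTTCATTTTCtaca
Isg15: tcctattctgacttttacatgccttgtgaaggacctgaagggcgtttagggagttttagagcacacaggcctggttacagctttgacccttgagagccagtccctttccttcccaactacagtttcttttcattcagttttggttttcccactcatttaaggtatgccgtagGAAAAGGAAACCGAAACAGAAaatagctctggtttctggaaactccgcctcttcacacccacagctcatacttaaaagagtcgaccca
Rsad2: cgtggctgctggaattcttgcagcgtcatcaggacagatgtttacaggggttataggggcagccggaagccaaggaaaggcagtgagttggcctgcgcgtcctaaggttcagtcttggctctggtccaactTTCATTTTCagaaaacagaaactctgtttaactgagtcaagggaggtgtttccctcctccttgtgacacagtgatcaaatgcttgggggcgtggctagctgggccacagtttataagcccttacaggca
In Isg15, 3 overlapping matches lay on the gene's strand, beginning at −78, −72 and −66. In Ifit1, 3 matches lay on the opposite strand with first bases at −109, −103 and −84. Ifi44 had 1 match on the opposite strand at −3 and Rsad2 had 1 at −119.

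An ISRE core was present in 18 of the 31 genes, in 51.4% of their windows against 8.56% of all 32851 windows of the same length. A GAS match was present in 6 of the 31, in 17.1% of windows against 8.30%. Of the 31 ISRE core matches, 23 began within 150 bases before the start and 5 after it. Among the 18 genes, 10 had 2 or more matches, and 3 had 3, namely Ifit1, Ifit3 and Isg15. The median CrePos minus CreNeg difference was 3.20 in the 18 genes with a match and 2.16 in the 13 whose window had none. It was 3.25 in the 10 with no window in the table. The genes were chosen on this difference, so nothing is read from these medians. A match is a description of letters and does not show that a factor binds, and Usp18 and Mx2, which rank among the largest differences, belong to the genes without a window.

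**Figure D1:**
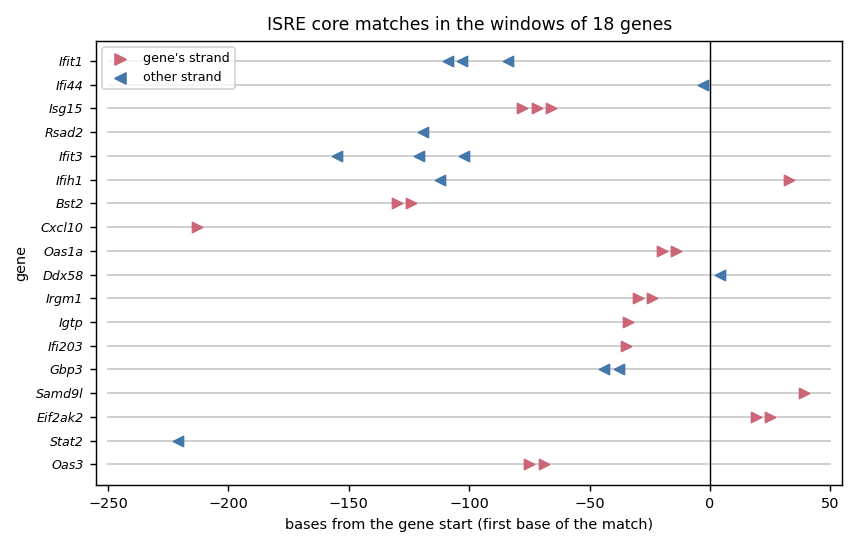
Positions of ISRE core matches in the RefSeq windows of the 18 genes that have one. The horizontal axis is the distance in bases from the gene start to the first base of the match, and genes are ordered from the largest CrePos minus CreNeg difference at the top to the smallest at the bottom. Of 31 matches, 26 begin before the start, most of them within 150 bases of it.

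In the 7 libraries of the Isl1 set the 41 genes stood low or absent in CreNeg and higher in CrePos. The mean of log2(CPM + 1) over the 41 genes was 1.33, 1.12, 1.23 and 0.95 in the 4 CreNeg libraries and 4.68, 3.57 and 3.24 in CrePos 1, 2 and 3. All 3 CrePos libraries lay above all 4 CreNeg libraries for 32 of the 41 genes, where this held for 1.78% of all genes with no filter and 1.56% of those tested. The rule chose the genes on these libraries, so nothing is read from that count. In CreNeg, 30 of the genes stayed at or under 5 CPM in every library and 11 at or under 1 CPM. A total of 37 genes passed the filter on low values, and the 4 that did not were Mx1, Irf9, Zbp1 and Epsti1. Over all 41 genes the median log2 difference was 2.89, with 40 positive and Irf9 negative, and 2.77 when CrePos 2 was included. The smallest positive differences were 0.12 for Oas3 and 0.19 for Ifit2.

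The 3 CrePos libraries did not stand at the same level. CrePos 1 held the highest level for 35 of the 41 genes, CrePos 2 for 5 and CrePos 3 for 1. The median difference from the CreNeg mean was 3.56 in CrePos 1, 2.46 in CrePos 2 and 2.16 in CrePos 3. CrePos 1 exceeded CrePos 3 for 39 genes, by a median of 1.32. Isl1, counted over the whole gene, was at 71.7, 2.85 and 53.9 CPM in CrePos 1, 2 and 3. No library carried Cre without the floxed Isl1, so an effect of Isl1 and an effect of Cre itself cannot be told apart. The part of either in the levels of the 41 genes was not tested.

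Markers of node and atrial identity also separated the groups in these libraries. Hcn4 was at 214 to 247 CPM in CreNeg and 36.7 to 108 CPM in CrePos (adjusted p = 0.0051, limma), and Tbx3 was at 52.5 to 152 CPM against 5.57 to 18.95 CPM (adjusted p = 0.0027, limma). In the other direction Gja5, an atrial gap junction gene, was at 7.69 to 50.6 CPM against 171 to 301 CPM (adjusted p = 0.0026, limma), and Nppa was at 0 to 2.57 CPM against 5.09 to 51.8 CPM (adjusted p = 0.036, limma). Nppa, at 0, 2.57, 0.300 and 0.0263 CPM in CreNeg 1 to 4, passed the filter only through CrePos, which favoured this direction. The part of the shift in these markers in the levels of the 41 genes was not tested.

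**Figure D2:**
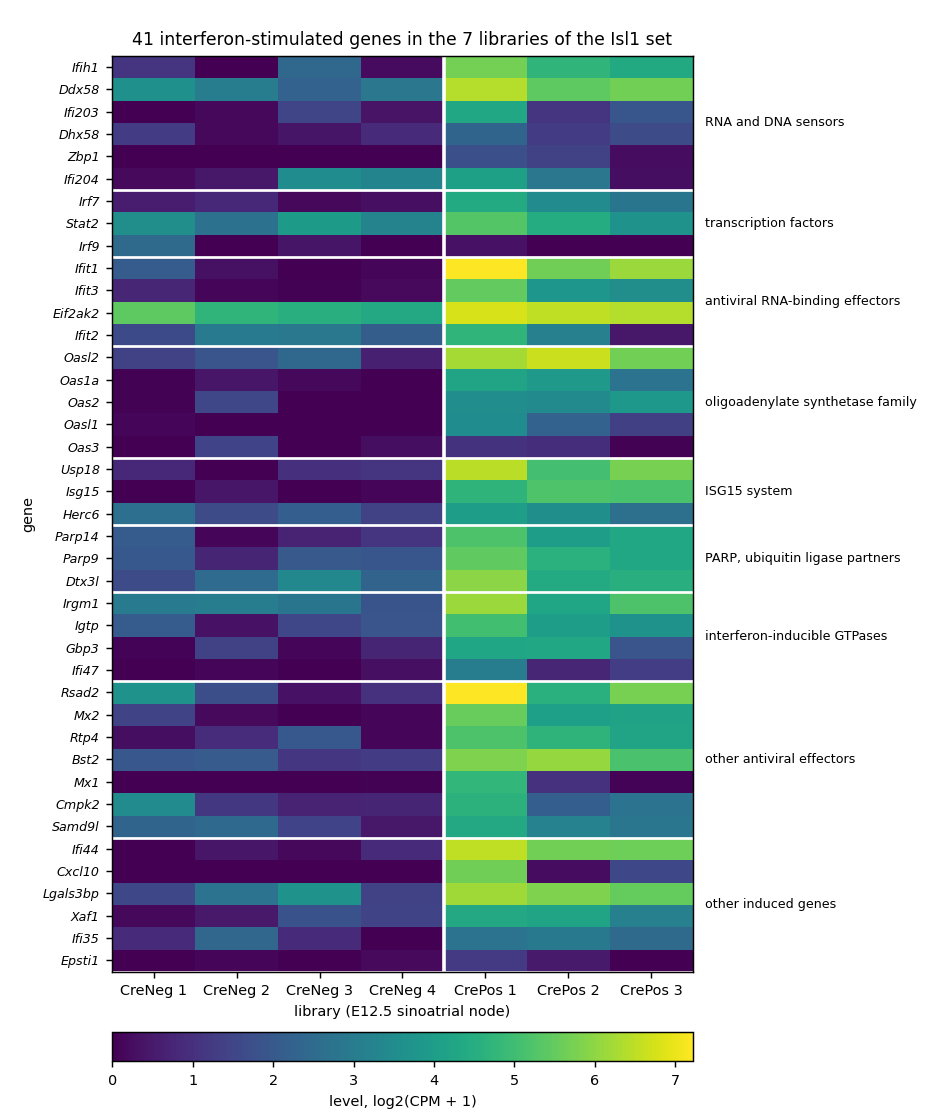
Levels of the 41 genes, as log2(CPM + 1), in the 4 CreNeg and 3 CrePos libraries of E12.5 SAN, grouped by role. Within a role the genes are ordered by their CrePos minus CreNeg difference, and the CrePos 1 column is the brightest for 35 of the 41.

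Among sensors of foreign RNA and DNA, Ifih1 (MDA5, a sensor of long double-stranded RNA) showed the largest difference. Ifih1 stood at 1.15, 0.0156, 4.31 and 0.150 CPM in CreNeg and at 51.2, 25.3 and 19.9 CPM in CrePos, a log2 difference of 4.11 ± 0.64 (SE). Every CrePos library was above every CreNeg library. Ddx58 (RIG-I) followed the same order at 3.84 to 11.4 CPM in CreNeg and 41.6 to 84.1 CPM in CrePos. Dhx58, a helicase of the same family, was low throughout, with CreNeg at 0.109 to 1.43 CPM and CrePos at 1.36 to 3.98 CPM, so that the groups overlapped. Ifi204, of the interferon-inducible DNA-binding family, had the smallest difference in this role. It stood at 0.131, 0.374, 10.4 and 8.51 CPM in CreNeg and at 16.2, 6.33 and 0.206 CPM in CrePos, a difference of 0.34 ± 1.00. The groups overlapped, with CrePos 1 above every CreNeg library and CrePos 3 among the lowest. Its relative Ifi203 was at 18.6 CPM in CrePos 1 but at 1.13 and 2.83 CPM in CrePos 2 and 3. Zbp1, a sensor of Z-form nucleic acid, had 0 reads in all 4 CreNeg libraries and 2.42, 1.67 and 0.173 CPM in CrePos.

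The 3 transcription factors of the response behaved differently from each other. Irf7, which amplifies interferon production, was at 0.493, 0.749, 0.106 and 0.220 CPM in CreNeg and at 20.3, 10.2 and 6.03 CPM in CrePos, a difference of 3.16 ± 0.53. Stat2 was present in every CreNeg library, at 10.7, 5.43, 14.18 and 8.28 CPM, and at 37.8, 21.1 and 11.9 CPM in CrePos, where the groups overlapped. Irf9, the DNA-binding partner of Stat2, was the only gene of the 41 with a negative difference. It stood at 4.67, 0, 0.336 and 0 CPM in CreNeg and at 0.286, 0 and 0 CPM in CrePos, so no higher level of Irf9 in CrePos was detectable.

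The RNA-binding effectors held the largest difference of all. Ifit1, which binds RNA that lacks the cap modification of the host, was at 3.29, 0.249, 0 and 0.0616 CPM in CreNeg. In CrePos it reached 147, 48.8 and 69.6 CPM, a difference of 6.05 ± 0.59. Its neighbour in the same cluster, Ifit2, had the smallest difference in this role, 0.19 ± 0.83. Ifit2 stood at 2.10, 6.96, 6.36 and 3.33 CPM in CreNeg and at 25.5, 7.90 and 0.370 CPM in CrePos, so CrePos 3 was below every CreNeg library. Ifit3, which lies next to Ifit2, was at most 0.706 CPM in CreNeg and 10.9 to 43.9 CPM in CrePos. Eif2ak2 (PKR, a kinase that stops translation on sensing double-stranded RNA) was at 19.4 to 42.2 CPM against 84.9 to 109 CPM in CrePos. Members of the Ifit, Oas and Mx families are close in sequence and may share reads.

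Oligoadenylate synthetases make the messenger that activates the RNA-degrading enzyme RNase L. In this family Oasl2 had the largest difference. It stood at 1.63, 2.71, 4.42 and 0.538 CPM in CreNeg and at 74.3, 97.9 and 50.6 CPM in CrePos, a difference of 4.38 ± 0.50, with no overlap. Oas3 was at 0.0164, 1.75, 0 and 0.203 CPM in CreNeg and at 1.08, 0.906 and 0.0329 CPM in CrePos, a difference of 0.12 ± 0.55 with full overlap. Its neighbour Oas2 was at 9.86 to 13.4 CPM in CrePos and at most 1.90 CPM in CreNeg. Oas1a and Oasl1 did not overlap either, with differences of 3.30 and 2.41.

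The ISG15 system attaches the ubiquitin-like protein ISG15 to other proteins and removes it. Usp18, the protease that removes ISG15 and also restrains receptor signalling, was at 0.756, 0, 0.990 and 1.16 CPM in CreNeg and at 87.5, 32.1 and 52.4 CPM in CrePos, a difference of 5.37 ± 0.48. Isg15 itself was at 0, 0.343, 0.0177 and 0.0707 CPM in CreNeg and at 25.0, 36.4 and 34.2 CPM in CrePos. Isg15 is the only gene of the 41 whose lowest CrePos level was in CrePos 1. Herc6, the ligase that attaches ISG15 in mice, had the smallest difference of the 3, 1.40 ± 0.52. It stood at 5.18, 2.12, 3.46 and 1.61 CPM in CreNeg and at 15.4, 11.0 and 5.33 CPM in CrePos, where CrePos 3 was just above the highest CreNeg library.

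Parp14, Dtx3l and Parp9 lie side by side, encode 2 ADP-ribosyltransferases and the ubiquitin ligase partner of Parp9, and had differences between 2.80 and 3.78. Parp14 was at 3.25, 0.0625, 0.601 and 1.14 CPM in CreNeg and at 36.1, 15.3 and 18.9 CPM in CrePos, a difference of 3.78 ± 0.56. Dtx3l was at 2.14, 4.73, 9.42 and 3.89 CPM in CreNeg and at 60.8, 20.4 and 22.7 CPM in CrePos, a difference of 2.80 ± 0.51. The libraries carry no strand, and Dtx3l and Parp9 overlap, so their reads cannot be fully separated. The same limit holds for Parp9 with Gm15564, Rtp4 with Masp1 and Eif2ak2 with Gm6548, which also overlap.

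The interferon-inducible GTPases attack the vacuoles of intracellular parasites and bacteria. Irgm1, a regulator of the family, was at 6.87, 7.10, 6.05 and 2.65 CPM in CreNeg and at 69.4, 18.03 and 35.8 CPM in CrePos, a difference of 3.00 ± 0.43. Ifi47 was at 0, 0.0937, 0 and 0.220 CPM in CreNeg and at 7.09, 0.713 and 1.5 CPM in CrePos, a difference of 2.06 ± 0.53. All 4 genes of this role, with Igtp and Gbp3, had no overlap between the groups.

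Among the other antiviral effectors Rsad2 (viperin), which makes a chain-terminating nucleotide, had the largest difference, 4.77 ± 0.71. It was at 12, 2.35, 0.265 and 1.03 CPM in CreNeg and at 148, 22.9 and 52.2 CPM in CrePos. Its neighbour Cmpk2, a mitochondrial nucleotide kinase, was also highest in CreNeg 1, at 10.2 CPM, and overlapped the CrePos libraries at 3.43 to 23.9 CPM. The smallest difference in this role was that of Samd9l, a translation inhibitor, at 1.92 ± 0.61. Samd9l stood at 3.99, 4.55, 1.71 and 0.379 CPM in CreNeg and at 19.4, 8.20 and 6.15 CPM in CrePos. Bst2 (tetherin, which holds budding virus at the cell surface) was at 1.22 to 3.17 CPM against 34.5 to 66.3 CPM. Rtp4 and Mx2, a dynamin-like GTPase, also had no overlap. Mx1 was carried by a single library, with at most 4 reads in a CreNeg library and 26.6, 1.06 and 0.0575 CPM in CrePos.

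The remaining genes have assorted or less defined functions. Ifi44 was at 0, 0.343, 0.106 and 0.802 CPM in CreNeg and at 91.7, 49.9 and 48.1 CPM in CrePos, a difference of 5.72 ± 0.48. Epsti1 was at 0, 0.0625, 0 and 0.132 CPM in CreNeg and at 1.34, 0.448 and 0 CPM in CrePos, and overlapped. Cxcl10, a chemokine that attracts T cells, had 0 reads in all 4 CreNeg libraries. It reached 48.9 CPM in CrePos 1 but 0.183 and 1.98 CPM in CrePos 2 and 3. Cxcl10 overlaps Art3, and with no strand information their reads cannot be told apart. Lgals3bp, a secreted glycoprotein, was at 1.66 to 11.8 CPM in CreNeg and at 45.0 to 71.2 CPM in CrePos. Xaf1 and Ifi35 did not overlap, with differences of 2.77 and 1.58.

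Other genes of the pathway were set beside these from lists of genes outside the 41, and 86 of them were tested in the same fit. In the limma fit 25 of the 86 rose in CrePos and 0 fell, where 0.678% of all genes rose and 1.32% fell. The count was 4 of 70 without CrePos replicate 1 and 8 of 72 without CrePos replicate 3, fits with a single CrePos library whose spread is assumed to be that of CreNeg. With no filter on low values 6 of 99 rose, and with DESeq2 on the recovered reads 39 of 86. The filter could be met by CrePos 1 and 3 alone, and a gene that met it so could only rise. Oas1b, Ifi27l2a and Slfn8 were examples among the 25, with CreNeg at most 0.842, 0.477 and 0.954 CPM. How many of the 25 were such genes was not counted. The 25, and the counts by list below, thus include genes whose direction had to be this one. The receptor chains of type I interferon did not pass the test. Ifnar1 was at 29.3 to 45.6 CPM in CreNeg and 22.03 to 31.0 CPM in CrePos (adjusted p = 0.26, limma), and Ifnar2 at 11.9 to 23.7 and 11.9 to 19.6 CPM (adjusted p = 0.59, limma).

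Of 17 tested nucleic acid sensors and adaptors outside the 41, 0 rose and 0 fell at the adjusted threshold. The nearest was Tlr3, the endosomal receptor for double-stranded RNA, at 0.141 to 4.47 CPM in CreNeg and 5.74 to 20.0 CPM in CrePos (adjusted p = 0.078, limma). Of 39 other interferon-stimulated genes, 15 rose. Ifitm3, a membrane protein that blocks viral fusion, was at 4.53 to 13.5 CPM in CreNeg and 71.1 to 148 CPM in CrePos, a difference of 3.65 ± 0.41 (adjusted p = 0.00021, limma). Ddx60, Oas1b and Trim25 rose by 4.03, 3.22 and 1.74, and of these Oas1b passed the filter only through CrePos. Of 14 further guanylate-binding and immunity-related GTPases, 9 rose. Gvin1 was at 3.30 to 6.0 CPM in CreNeg and 20.2 to 89.5 CPM in CrePos, a difference of 3.59 ± 0.43 (adjusted p = 0.00029, limma). Irgm2, Gbp10 and Gbp6 rose by 3.55, 2.65 and 2.52. Of 20 interferon ligand genes looked up, Ifnk and Ifnz were in the table and their sum was at most 1.09 CPM in any of the 7 libraries. Ifnb1 and Ifng were not analysed here.

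Markers of immune cells were read in the same libraries. In bulk tissue, fewer cells of a type and less RNA per cell cannot be told apart. The summed level of 15 macrophage and monocyte markers was 47.9 to 81.2 CPM in CreNeg and 93.8, 107 and 14.5 CPM in CrePos 1, 2 and 3, and 0 of the 12 tested passed in either direction. The pan-leukocyte marker Ptprc was at 0.442 to 1.56 CPM in CreNeg and at 5.75, 1.37 and 0 CPM in CrePos 1, 2 and 3. The part of these cells in the levels of the 41 genes was not tested. Ly6c2 was at 0 in all 7 libraries, and the plasmacytoid dendritic cell marker Siglech was at 0 in all 3 CrePos libraries. Of the other markers on that list, Klk1 was at 0 in all 7 and Ccr9 at 0.0247 CPM or less in CrePos. Cox6a2, which heart muscle also expresses, was the highest of the list in every library. Runx2 stood at 27.4 CPM in CreNeg 1 and at 1.12 to 3.20 CPM in CreNeg 2 to 4. In CrePos it was at 2.26 to 5.15 CPM. The 3 lymphocyte and natural killer cell markers in the table summed to at most 0.998 CPM and the 2 neutrophil markers to at most 0.0920 CPM in any library. Endothelial markers summed to 280 to 367 CPM in CreNeg and 214 to 345 CPM in CrePos, with 0 of 8 passing. Of 12 p53 targets, 1 rose. Cdkn1a, the p53-driven cell cycle inhibitor, was at 1.51 to 3.27 CPM in CreNeg and at 25.5, 95.3 and 25.3 CPM in CrePos. Its part in the levels of the 41 genes was not tested.

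In the tissue and stage set the same 41 genes asked a separate question, namely what their level is in SAN and RA of mice with no Cre and no tamoxifen. Their mean log2(CPM + 1) was lowest in SAN at E14.5, at 1.25, 1.29 and 1.64, and highest in RA at E14.5, at 2.61, 3.05 and 2.30. At P4 it was 2.07, 1.88 and 1.89 in SAN and 2.18, 2.60 and 1.94 in RA. At P14 it was 2.53, 2.43 and 2.39 in SAN and 2.18, 2.31 and 2.13 in RA. SAN libraries thus lay below RA libraries at E14.5, overlapped with them at P4, and lay above them at P14. At P14 the median SAN minus RA difference was 0.32 over the members tested and 0.10 over all genes. Over all genes it was −0.04 once libraries were scaled to equal upper quartiles. In SAN at E14.5, 18 to 24 of the 41 genes reached 1 CPM, and in RA at E14.5 33 to 39 did.

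**Figure D3:**
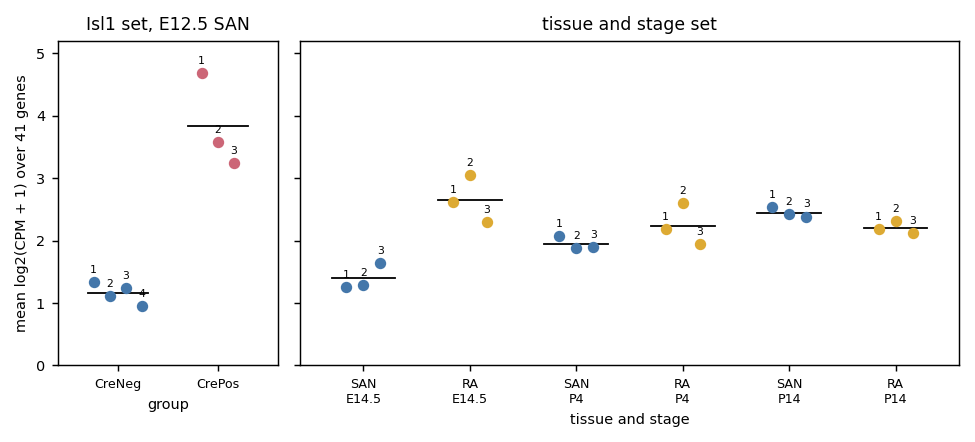
Mean of log2(CPM + 1) over the 41 genes in each library, with the replicate number beside each point and the group mean as a line, for the Isl1 set on the left and the tissue and stage set on the right. The genes were chosen on the left panel, and the sets are not compared with each other. On the right, SAN lies below RA at E14.5 (1.25 to 1.64 against 2.30 to 3.05) and above it at P14 (2.39 to 2.53 against 2.13 to 2.31).

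A total of 38 of the 41 genes passed the filter on low values in these libraries, the exceptions being Cxcl10, Irf9 and Zbp1. Averaged over the 3 stages, 0 of the 38 were higher in SAN and 6 were lower, where 6.11% of all genes were higher and 5.36% lower. The median difference was −0.44 over the 38 genes and −0.01 over all genes. Samd9l was at 2.67, 9.63 and 24.6 CPM (lowest, median and highest of 9 libraries) in SAN and at 14.3, 24.7 and 36.1 CPM in RA, a difference of −1.12 ± 0.26 (adjusted p = 0.0058, limma). Stat2 was at 11.1, 15.8 and 44.9 CPM in SAN and at 20.8, 31.7 and 56.0 CPM in RA, a difference of −0.89 ± 0.24 (adjusted p = 0.017, limma). For both genes the libraries overlapped and SAN held the lower median. Ifit1 was at 0, 0.863 and 8.81 CPM in SAN and at 1.51, 4.96 and 17.9 CPM in RA, a difference of −1.55 ± 0.44 (adjusted p = 0.024, limma). The call for Ifit1 was lost without RA E14.5 replicate 2 (adjusted p = 0.062, limma) or RA P4 replicate 3 (0.053). It was also lost without SAN P4 replicate 2 (0.058), and with edgeR (0.095). Mx1 was at 0, 0 and 0.802 CPM in SAN and at 0, 1.08 and 4.24 CPM in RA (adjusted p = 0.0058, limma), and Oas3 was likewise near the floor in SAN. Mx1 and Oas3 passed the filter only through RA, so their direction had to be this one.

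The comparison of SAN with RA at single stages was added after the values had been seen. At E14.5, 10 of the 38 genes were lower in SAN and 0 higher, where 3.09% of all genes were lower and 2.24% higher. The difference was negative for 37 of the 38, with a median of −1.31 against −0.07 over all genes. Among all 41 genes, 24 had all 3 SAN libraries below all 3 RA libraries, against 13.8% of all genes with no filter. Ddx58, the RIG-I sensor, stood at 9.25, 24.3 and 5.32 CPM in SAN and at 31.5, 46.8 and 34.5 CPM in RA, a difference of −1.69 ± 0.43 (adjusted p = 0.020, limma), with no overlap. The Ddx58 call was lost without RA E14.5 replicate 2 (adjusted p = 0.115) or 3 (0.052), without SAN E14.5 replicate 1 (0.089) or 3 (0.129), and with edgeR (0.098). Oasl2 stood at 0.0723, 0.308 and 1.91 CPM in SAN and at 14.3, 7.92 and 6.77 CPM in RA, a difference of −2.68 ± 0.53 (adjusted p = 0.0029, limma). Ifih1, Rtp4, Lgals3bp, Oas2, Samd9l, Ifi203, Xaf1 and Oas3 made up the rest. Oas3 was at 0 in all 3 SAN libraries and at 2.58 to 4.61 CPM in RA, and passed the filter only through RA.

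The count at E14.5 depended on single libraries. It was 3 without RA E14.5 replicate 2, the library with the highest level for 26 of the 41 genes, and 5 without SAN E14.5 replicate 1. That SAN library held 829 CPM of Myl2, against 1.60 and 14.14 CPM in the other two. Ifih1, Oasl2 and Oas3 were called in all 18 fits that left out 1 library. With edgeR on the recovered reads 6 of the 38 were lower and 0 higher. At P4 the count lower in SAN was 2, Oas2 and Mx1, where 2.99% of all genes were lower and 2.97% higher, and at P14 it was 0 lower and 0 higher, where 1.34% and 3.21% were. All 3 SAN libraries lay below all 3 RA libraries for 5 of the 41 genes at P4, against 9.72% of all genes with no filter, and for 1 of the 41 at P14, against 5.88% with no filter and 6.61% of those tested. At P14, 4 of the 38 were higher and 0 lower at an unadjusted p under 0.05, and edgeR and DESeq2 also called 0. The P4 count fell to 0 without RA P4 replicate 1, SAN P4 replicate 2 or SAN P4 replicate 3, and to 1 without RA P4 replicates 2 or 3, SAN P4 replicate 1, RA E14.5 replicate 1, RA P14 replicates 1 or 3, or SAN P14 replicate 3.

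**Figure D4:**
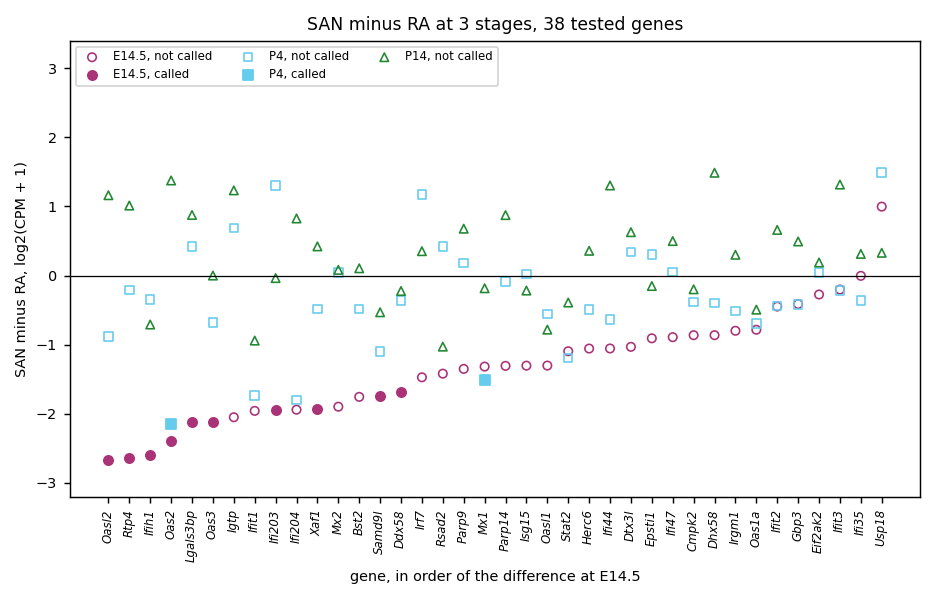
SAN minus RA difference on the log2(CPM + 1) scale for the 38 tested genes at E14.5 (circles), P4 (squares) and P14 (triangles). Filled symbols passed the adjusted threshold in the limma fit, 10 at E14.5, 2 at P4 and 0 at P14. At E14.5 the values are below 0 for 37 of the 38 genes.

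Other genes of the pathway and of other cell types differed at E14.5 as well. Of 15 guanylate-binding and immunity-related GTPases outside the 41, 3 were lower (Gbp4, Gbp8 and Gbp9), and of 44 other interferon-stimulated genes 4 were lower (Mnda, Ifitm3, Trim34a and Ddx60), with 0 higher in each list. All 8 endothelial markers were lower in SAN, with sums of 513 to 842 CPM against 1561 to 2068 CPM in RA. Macrophage markers summed to 63.4 to 111 CPM in SAN and 89.2 to 158 CPM in RA, and 1 of 15, Lyz2, was lower. At P4 and P14 the endothelial sum was still lower in SAN, at 690 to 1066 against 1342 to 1668 CPM and at 1154 to 1223 against 1635 to 1788 CPM. The macrophage sum at P4 was 181 to 336 CPM in SAN and 162 to 270 CPM in RA. At P14 it was 557 to 700 CPM in SAN and 265 to 328 CPM in RA, and 2 of the 15 markers were higher in SAN and 0 lower. The part of these cells in the differences of the 41 genes was not tested.

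From E14.5 to P14 in SAN, 12 of the 38 tested genes rose and 0 fell, where 9.74% of all genes rose and 14.5% fell. The median change was 0.92 over the 38 genes and −0.18 over all genes, and leaving out any 1 library gave 10 to 13 calls. Among all 41 genes, 14 had all 3 P14 libraries above all 3 E14.5 libraries, against 12.9% of all genes with no filter. This comparison and that of SAN with RA at E14.5 use the same 3 SAN E14.5 libraries, so a low level there enters both.

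Of the nucleic acid sensors, Ifi203 rose from 2.53, 0.123 and 2.91 CPM at E14.5 to 44.8, 24.9 and 42.7 CPM at P14, a change of 3.90 ± 0.53 (adjusted p = 1.24e-05, limma). Ifih1 rose from 0.723, 1.17 and 1.91 CPM to 18, 22 and 10.3 CPM, a change of 2.94 ± 0.56 (adjusted p = 0.00050, limma). In both genes the lowest P14 library was above the highest E14.5 library. Ifi204 went from 0, 2.28 and 0.702 CPM to 11.4, 2.53 and 4.08 CPM (adjusted p = 0.032, limma). Its call was lost without SAN E14.5 replicates 1 or 3 or SAN P14 replicates 1 or 3. Adjusted p was then between 0.051 and 0.17 with limma, and with edgeR on all libraries it was 0.081.

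Of the effectors, Oasl2 rose from 0.0723, 0.308 and 1.91 CPM to 10.4, 20.4 and 19.0 CPM, a change of 3.41 ± 0.53 (adjusted p = 5.62e-05, limma). Rtp4, a chaperone-like protein with antiviral action, rose from 0, 0.0616 and 0.10 CPM to 6.55, 14.7 and 1.68 CPM, a change of 2.69 ± 0.60 (adjusted p = 0.0022, limma). At E14.5 Rtp4 was at or under the floor of 3 reads, and its P14 libraries differed among themselves by more than those of Oasl2. Rtp4 also overlaps Masp1, so with no strand their reads cannot be fully separated. Parp14 rose from 2.46, 3.51 and 6.72 CPM to 45.4, 18.9 and 29.8 CPM, and its neighbour Parp9 from 4.84, 2.53 and 3.51 CPM to 21.4, 8.00 and 21.0 CPM, changes of 2.63 and 1.86. Both kept the lowest P14 library above the highest E14.5 library.

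Among the GTPases, Igtp rose from 1.74, 2.40 and 0.802 CPM to 19.4, 12.3 and 4.72 CPM, a change of 2.18 ± 0.65 (adjusted p = 0.017, limma). The call was lost without SAN E14.5 replicate 3 (adjusted p = 0.070), SAN P14 replicate 1 (0.089) or SAN P14 replicate 2 (0.050). Of the remaining genes, Lgals3bp rose from 2.53, 4.56 and 4.31 CPM to 50.7, 49.2 and 17.3 CPM, a change of 2.94 ± 0.52 (adjusted p = 0.00024, limma). Xaf1, a gene linked to cell death, rose from 1.08, 3.88 and 0.301 CPM to 13.3, 11.2 and 13.9 CPM, a change of 2.54 ± 0.56 (adjusted p = 0.0019, limma). Ifi47 and Samd9l completed the 12, and the Ifi47 call was lost with edgeR (adjusted p = 0.097) and DESeq2 (0.061). Samd9l, at 1.31, was the only one of the 12 whose stages overlapped. Its limma call was lost without SAN E14.5 replicates 1 or 2, RA P14 replicate 1, or SAN P14 replicates 2 or 3. Adjusted p was then between 0.051 and 0.22, and it was 0.051 with no filter.

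Macrophage markers rose over the same interval in SAN. Of 15 tested, 11 rose and 0 fell, and their sum went from 63.4 to 111 CPM to 557 to 700 CPM. Of 8 endothelial markers 4 rose, and their sum reached 1154 to 1223 CPM. Of 15 other GTPases 7 rose and 0 fell, among them Iigp1 and Gvin1 at 3.78 and 2.93, and of 44 other interferon-stimulated genes 10 rose and 7 fell. Tlr3 rose by 2.78 and Ifngr1, a receptor chain for interferon gamma, by 1.11. The part of macrophages and endothelium in the rise of the 41 genes was not tested.

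In RA the same interval gave the opposite balance. There 1 of the 38 genes rose, Ifi203, and 5 fell, where 5.99% of all genes rose and 16.7% fell. The median change was −0.43 over the 38 genes and −0.37 over all genes, so the fall of the 41 genes in RA was close to the background. Likewise 12 of the 41 genes had all 3 P14 libraries below all 3 E14.5 libraries, against 29.7% of all genes with no filter. Irf7 went from 5.30, 6.45 and 2.76 CPM to 0.876, 0 and 0.295 CPM, a change of −2.06 ± 0.59 (adjusted p = 0.014, limma). Its call was lost without RA E14.5 replicate 2 or RA P14 replicate 2 (adjusted p = 0.062 for both, limma). It was also lost with edgeR (adjusted p = 0.18) and DESeq2 (0.090). Eif2ak2 went from 62.0, 80.3 and 47.5 CPM to 26.7, 22.6 and 31.9 CPM, a change of −1.18 ± 0.28 (adjusted p = 0.0034, limma). Oas2 went from 8.57, 19.9 and 2.05 CPM to 1.61, 0.445 and 0.443 CPM. The change in Oas2 was −2.27 ± 0.63 (adjusted p = 0.011, limma). Its call was lost without RA E14.5 replicate 2 (adjusted p = 0.091, limma), with edgeR (0.15) and with DESeq2 (0.061). Oas3 went from 3.04, 4.61 and 2.58 CPM to 0 in all 3 libraries (adjusted p = 0.00025, limma), and passed the filter only through the higher group, so its direction had to be this one. Mx1 was the fifth, and its call was lost with edgeR (adjusted p = 0.28) and DESeq2 (0.35). Ifi203 went from 7.56, 13.8 and 5.97 CPM to 29.1, 83.2 and 21.1 CPM, a rise that lost its call without RA P14 replicate 2 (adjusted p = 0.074). In all, 3 of the 38 were called without RA E14.5 replicate 2 and 3 without RA P14 replicate 2.

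Whether SAN and RA changed by different amounts between E14.5 and P14 was tested as an interaction. It was positive, meaning a larger rise or smaller fall in SAN, for 37 of the 38 genes, with a median of 1.49 against 0.18 over all genes. Markers of other cells had medians in the same direction, 1.49 over 15 macrophage markers (1 passed) and 0.91 over 8 endothelial markers (1 passed), and 15 other GTPases had 1.62 (2 passed). The part of these cells in the members' difference was not tested. The interaction shares its E14.5 libraries with the comparison of SAN with RA at E14.5, so the difference at that stage enters both. Of the 38, 5 passed with a positive difference and 0 with a negative one, where 1.64% and 0.632% of all genes did. Oasl2 had the largest, 3.84 ± 0.75 (adjusted p = 0.0079, limma), and in RA it went from 14.3, 7.92 and 6.77 CPM to 4.53, 6.5 and 9.45 CPM. The others were Oas2 at 3.77, Rtp4 at 3.65, Lgals3bp at 3.00 and Oas3 at 2.11. Oas3 was at 0 in all SAN libraries of both stages and in RA at P14, so its difference rests on RA at E14.5 alone. Oasl2 was called in all 18 fits that left out 1 library. The other 4 were not, and the count of 5 fell to 1 without RA E14.5 replicate 2, SAN E14.5 replicates 1 or 2, RA P14 replicate 2 or SAN P14 replicate 2. It was 2 without RA E14.5 replicate 1, RA P14 replicates 1 or 3 or SAN P14 replicate 1.

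**Figure D5:**
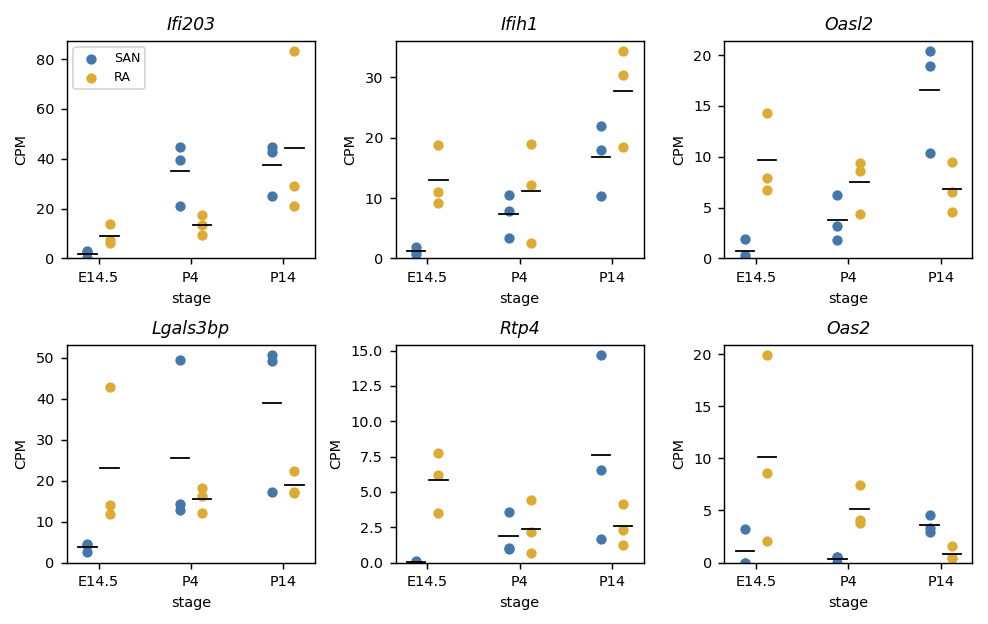
Levels in CPM of Ifi203, Ifih1, Oasl2, Lgals3bp, Rtp4 and Oas2 in each SAN and RA library at E14.5, P4 and P14, with group means as lines and a linear axis from 0 in each panel. The mean of SAN at E14.5 is the lowest of the 6 groups in every panel except that of Oas2, where SAN at P4 and RA at P14 have lower means.

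The step from E14.5 to P4, averaged over both tissues, moved few of the genes. A single gene of the 38 rose, Ifi203 at 2.16 ± 0.37 (adjusted p = 0.00034, limma), and 0 fell, where 6.07% and 8.11% of all genes did. The count was 2 without RA E14.5 replicate 2, RA P4 replicate 3 or SAN P4 replicate 3, and edgeR and DESeq2 gave 3 and 4. From P4 to P14, 4 of the 38 rose and 0 fell, where 3.88% and 9.83% of all genes did. Ifi47 was at 0, 0 and 0.696 CPM (lowest, median and highest of 6 libraries) at P4 and at 0.730, 2.25 and 2.64 CPM at P14, with no overlap (adjusted p = 0.0071, limma). It passed the filter only through P14, and its call was lost with edgeR (adjusted p = 0.099) and DESeq2 (0.060). Ifit3 was at 0, 0.239 and 3.67 CPM at P4 and at 1.07, 2.94 and 20.3 CPM at P14 (adjusted p = 0.048, limma). It kept its call in 5 of the 18 fits that left out 1 library. The Ifit3 call was lost with edgeR (adjusted p = 0.17) and DESeq2 (0.077). Ifih1 and Xaf1 rose by 1.33 and 1.26, and the Xaf1 call was lost with edgeR (adjusted p = 0.067). The count of 4 fell to 1 without RA P4 replicate 3 or RA P14 replicates 1 or 2, and to 2 without RA P4 replicate 1, SAN P4 replicate 3 or SAN P14 replicates 1 or 2.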

How the data were processed

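RNA of laser-captured SAN and RA was sequenced in 25 libraries. TopHat2 2.0.6, edgeR and the build mm8 are named per the submitters' processing notes. The counter and annotation are not given in the sources used here. The deposited table holds a scaled signal per gene. In every library at least 99.995% of values were whole multiples of a single step (within 0.1 read), and reads were recovered from that step. CPM is the signal divided by 24.3 in all libraries. The tests used limma 3.58.1 in R 4.3.3 on log2(CPM + 1), keeping genes that reached 1 CPM in 3 or more libraries (17568 genes) or, in the Isl1 set, 2 or more (14595), with Benjamini-Hochberg adjustment over all genes tested and a threshold of 0.05.

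Members and gene lists were chosen with earlier results of these data known. Every gene of the 41 is accounted for. Levels per library are given for the largest and smallest CrePos minus CreNeg difference in each role, for genes called in the 18 libraries in the contrast with the smallest adjusted p, and for up to 4 genes of each other list. SAN against RA at single stages was added after the values were seen. Alternatives were a pseudocount of 0.25, no filter, equal upper quartiles, edgeR 4.0.16 quasi-likelihood and DESeq2 1.42.0 on recovered reads, a replicate block and leaving out each library. The fits were tested on simulated data. Replicates differed by more than counting noise (chi-squared over degrees of freedom at least 8.42). The ± values are standard errors from limma and rest on the spread between libraries, while the floors cover counting error only. Sequences are RefSeq's, in GRCm38.p6. One gene of the pathway lists is not reported here, though list counts include it.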

Additional observations from a re-analysis of the deposited data

Results flagged for a closer look

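In 5 genes the change from E14.5 to P14 differed between SAN and RA by the interaction term: Oasl2 (3.84, adjusted p = 0.0079, limma), Oas2 (3.77, adjusted p = 0.026), Rtp4 (3.65, adjusted p = 0.025), Lgals3bp (3.00, adjusted p = 0.031) and Oas3 (2.11, adjusted p = 0.035). The smallest of these, Oas3, was at 0 in SAN at both stages, so the difference is the fall in RA.

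Among the 41 genes, 8 had a CreNeg library apart from the other 3, its gap to the nearest being above Dixon's critical share of the whole range for 4 samples. Chance flags about 1 in 20 groups of normal values, but the same rule marks 13.3% of the 20314 genes that are not level in CreNeg. CreNeg replicate 1 was the high library for 5 of them: Cmpk2 at 10.2 CPM, Irf9 at 4.67 CPM, Ifit1 at 3.29 CPM, Mx2 at 1.79 CPM and Oasl1 at 0.0657 CPM. Oas2 was high in CreNeg replicate 2 at 1.90 CPM, where Parp9 was low at 0.686 CPM. Mx1 was at 0.0353 CPM in CreNeg replicate 4 and at 0 in the other 3. For Oasl1 and Mx1 these values are 4 reads each.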

How the results depend on the processing

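The count of members called fell to 3 in RA from E14.5 to P14, to 1 from P4 to P14, to 3 for the difference between tissues, to 6 for SAN against RA at E14.5 and to 0 at P4 with edgeR on recovered reads. From E14.5 to P4 edgeR gave 3 and DESeq2 4, and from P4 to P14 DESeq2 gave 2. With no filter 2 were called from P4 to P14 and 1 for SAN against RA at P4, where equal upper quartiles also gave 1. For the other pathway genes in the Isl1 set, no filter gave 6 and DESeq2 39. The cause of these moves was not tested.

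Leaving out 1 library gave 5 to 8 for SAN against RA, 10 to 13 for SAN and 3 to 8 for RA from E14.5 to P14, 1 to 2 from E14.5 to P4, 1 to 5 from P4 to P14 and 1 to 6 for the difference between tissues. It gave 3 to 11 at E14.5, 0 to 2 at P4, 0 to 0 at P14, and 4 to 26 for the other pathway genes. Of calls for single genes, 764 held and 130 were lost when 1 library was left out, and 311 held and 48 were lost under the other alternatives. Of the members' CrePos minus CreNeg differences, 10 moved by more than the spread between replicates and 194 did not when 1 library was left out, and 71 moved and 188 did not under the other alternatives. No called gene turned its sign. Among the untested differences 3 small ones did: Ifit2 (−0.16 with a pseudocount of 0.25, −0.07 without CreNeg replicate 1 and −1.95 without CrePos replicate 1), Oas3 (−0.02 without CreNeg replicate 1, −0.03 without CreNeg replicate 3) and Ifi204 (−0.22 and −0.12 without CreNeg replicates 1 or 2, −1.58 without CrePos replicate 1).

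Deviations from the group means correlated at r of −0.0915 to 0.119 between SAN and RA samples of the same number and stage. Between different numbers r was −0.0929 to 0.147. Such values from 3 libraries a group cannot settle whether the numbers pair samples. With a replicate block 1 member was called for SAN against RA at P4 in place of 2, and 11 at E14.5.

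Equal upper quartiles moved the genes called higher in CrePos from 33.9% to 71.6% of all genes called. Depth limits genes near the floor, among them Oas3, Mx1 and Rtp4.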
